A study of Homo sapiens with 19 samples.

Results

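Of the 39777 ERRα peaks called in lapatinib-resistant LRSKBr3 cells, 5886 overlapped no peak by even 1 bp in any of the 7 other ERRα peak lists of the series, which is 14.8% of the LRSKBr3 list (95% Wilson interval 14.5 to 15.1%). These are called the unique sites, and the 33891 other LRSKBr3 peaks are the comparison. The 8 lists held 264623 peaks. The sites were chosen by the authors' peak calls in all 8 lists, so that their absence from the other lists is the rule and not a result.

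ERRα chromatin immunoprecipitation and sequencing (ChIP-seq) was carried out in SKBr3 and BT-474, both HER2-positive human breast cancer cell lines grown in 10% fetal bovine serum. LRSKBr3 is an SKBr3 line with acquired resistance to lapatinib, an inhibitor of the EGFR and HER2 kinases, and was kept in 2 μM lapatinib, while pSKBr3 is its untreated parental line. The other 6 lists came from SKBr3 and BT-474 cells starved of serum for 24 h and given vehicle, EGF or heregulin (HRG, a ligand of HER3), the growth factors at 100 μM as the submitters label it, for 90 min. For every list of the SKBr3 lines the authors pooled 2 ChIP libraries and used 1 input, whereas a BT-474 list came from a single ChIP library and the vehicle input served all of those lists. No starvation is labelled for pSKBr3 and LRSKBr3. Drug and line cannot be told apart, since LRSKBr3 cells differ from pSKBr3 cells in both, and 1 list stands for each condition, so that no spread between cultures could be computed. Peak lists hold no measure of the cells' identity or of DNA copy number, and no tag counts, so that the depth of the libraries is unknown.

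ERRα is an orphan nuclear receptor that acts with coactivators of the PGC-1 family and is known for its control of mitochondrial and other metabolic genes. It binds as a monomer or a dimer to the ERR response element (ERRE), an extended nuclear receptor site in which bases before the core AGGTCA set the preference for ERRs. AP-1 factors, the dimers of JUN and FOS proteins made after growth factor stimulation, bind a different short palindrome, and heregulin and EGF are known activators of that pathway.

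The sequences below show what an ERRE or an AP-1 word looks like in a unique site, and were taken from among the 6 unique sites of highest score holding each word or both. They are given 5′ to 3′ from GRCh37, the build of the peak lists, on the strand that carries the word. Capitals mark the ERRE word TCAAGGTCA, which was sought on both strands within 100 bp of the centre of each peak. Of the 5 sites listed first, the one near GDAP1L1 is the only one within 1 kb of a start.

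TMEM254, chr10:81824156-81824244, minus strand: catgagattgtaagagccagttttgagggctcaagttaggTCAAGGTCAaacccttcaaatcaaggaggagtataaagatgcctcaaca
PLCE1, chr10:95900552-95900640, minus strand: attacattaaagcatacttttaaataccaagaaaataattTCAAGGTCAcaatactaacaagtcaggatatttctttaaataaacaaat
PGM5, chr9:71030400-71030488, minus strand: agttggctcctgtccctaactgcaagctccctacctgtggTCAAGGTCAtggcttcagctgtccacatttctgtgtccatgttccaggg
GDAP1L1, chr20:42893795-42893883, minus strand: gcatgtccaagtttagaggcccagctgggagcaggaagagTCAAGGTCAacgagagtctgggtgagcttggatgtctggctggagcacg
TCF7L2, chr10:114658185-114658273, plus strand: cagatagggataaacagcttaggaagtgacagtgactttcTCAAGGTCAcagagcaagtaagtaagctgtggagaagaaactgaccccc

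The peak near TMEM254 had a score of 351.26 and lay 14.2 kb from the gene's start, in intergenic sequence. The score is the authors' −10 log10 of the MACS P value, so that 50 stands for their cutoff of 1e-05 and 100 for 1e-10. Those within introns of PLCE1, a phospholipase C, and of PGM5, a phosphoglucomutase-like protein, had scores of 246.49 and 241.97. A site 0.778 kb into GDAP1L1 scored 237.58, and one 51.8 kb upstream of TCF7L2, a transcription factor of the WNT pathway, scored 218.26.

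The next sites show the AP-1 word TGACTCA, whose other strand reads TGAGTCA, in capitals. They were the exception among unique sites, as the shares below show.

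MERTK, chr2:112677910-112677996, plus strand: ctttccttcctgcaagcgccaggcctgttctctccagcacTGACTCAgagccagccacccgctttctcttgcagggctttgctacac
RNF114, chr20:48574120-48574206, plus strand: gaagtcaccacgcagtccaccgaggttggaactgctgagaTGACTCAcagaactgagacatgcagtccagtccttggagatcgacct

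A site in an intron of MERTK, a receptor tyrosine kinase, scored 269.44. The one 21.2 kb from the start of RNF114, a ubiquitin ligase, scored 411.91 and was 5976 bp wide.

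Both words stood in the central window of 19 unique sites, and in 3 of them they overlapped by 3 bases into 1 run, in which the last bases of the AP-1 word open the ERRE. The same run was found in 8 of the 130 other LRSKBr3 peaks with both words. Capitals mark the joined words in one such site.

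SSR4, chrX:153075176-153075264, plus strand: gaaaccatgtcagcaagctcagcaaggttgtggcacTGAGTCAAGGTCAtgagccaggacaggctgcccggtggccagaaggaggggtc

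This site lay in an intron of PDZD4 with a score of 86.260, 15.2 kb from SSR4 and 15.3 kb from IDH3G, a subunit of the mitochondrial isocitrate dehydrogenase of the TCA cycle.

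The unique sites were mostly weak calls. Their scores ran from 50.01 to 2601, with a median of 73.9, against a median of 191 for the other LRSKBr3 peaks. Their quartiles were 59.64 and 102.6. Only 1555, or 26.4%, reached a P value of 1e-10, and 29 fell in the top band when the LRSKBr3 list was cut by score into 4 bands of equal size, while 3529 fell in the lowest. Peaks unique to each of the other lists were weak calls within their lists too, with medians at percentiles 13.8 to 22.2 of the scores of their own list against 19.9 for LRSKBr3. The sites unique to LRSKBr3 were also narrower than the other LRSKBr3 peaks, with a median width of 1206 bp against 1515 bp. At the edge of the rule, 78 unique sites lay within 100 bp of a peak of another list, and 57 other LRSKBr3 peaks overlapped one by 100 bp or less. The median scores of these neighbours on either side of the threshold were 69.2 and 84.1, which are closer to each other than the medians of the whole classes.

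By the same rule, every list had peaks of its own. The share was 15.2% for SKBr3 vehicle, 9.34% for SKBr3 EGF, 18.9% for SKBr3 HRG, 8.70% for BT-474 vehicle, 14.1% for BT-474 EGF, 21.5% for BT-474 HRG and 6.03% for pSKBr3. The LRSKBr3 share was thus in the middle of the lists. The lists differed in length, from 22539 peaks for pSKBr3, the shortest, to 41271 for BT-474 HRG, and the part of length in these shares was not tested. Of the other LRSKBr3 peaks, 19053 were shared with pSKBr3, 13089 were absent from pSKBr3 and present in at least 1 SKBr3 list, and 1749 were found only in BT-474 lists.

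The ERRE was as frequent in the unique sites as in the rest of the LRSKBr3 list. It was present in 432 of 5886 unique sites, or 7.34% (6.70 to 8.03%), against 0.280% of equally wide windows placed 2 kb away on both flanks. Among the other LRSKBr3 peaks it was present in 7.39%, a difference of −0.05 percentage points with an interval of −0.75 to 0.69. Intervals here cover counting over sites only and not the spread between cultures. The shorter word AAGGTCA, which lacks the first bases of the ERRE, was present in 25.5% of unique sites, 3.71% of their flanks and 25.4% of other LRSKBr3 peaks.

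The bases before that shorter word were also alike. In the unique sites 26.8% of its 1633 occurrences were preceded by TC, which makes the full ERRE, 27.3% by CC and 8.76% by TG. In the other LRSKBr3 peaks the same pairs preceded 27.1%, 25.1% and 9.12% of 9645 occurrences. TC and CC together thus preceded most of the words in both classes. Over the whole peak, the ERRE occurred in 13.2% of unique sites and 16.5% of the wider other peaks. There it lay at a median of 77.0 bp from the centre in unique sites and 114 bp in the others, and 37.1% against 27.5% of those peaks had it within 50 bp of the centre. The part of peak width in these values was not tested.

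Against peaks that were unique to any other list, the sites unique to LRSKBr3 held the ERRE more often. The nearest was pSKBr3, in which 4.41% of the 1360 unique peaks held the word, a difference of 2.93 percentage points (1.55 to 4.12). The SKBr3 lists gave 2.21% on vehicle, 3.48% on EGF and 2.08% on HRG, and the BT-474 lists gave 2.82%, 1.56% and 3.65% in that order. The smallest of these 6 differences was 3.69 percentage points (2.93 to 4.48), to BT-474 HRG. GC content differed between these sets, with a mean of 50.1% at the sites unique to LRSKBr3 and 32.4 to 48.8% at those of the other lists, and the shares were therefore also taken within ranges of GC. In windows of 40 to 50% GC the ERRE share was 9.85% (8.70 to 11.1%) for LRSKBr3, against 5.43% (3.78 to 7.73%) for pSKBr3, 5.17% for BT-474 HRG and 2.93 to 4.11% for the other lists. At 50 to 60% GC the LRSKBr3 and pSKBr3 shares were 6.05% (5.04 to 7.25%) and 5.14% (3.19 to 8.19%), with overlapping intervals, and at 60% or over the order turned, with 1.4% (0.836 to 2.34%) and 4.02% (1.96 to 8.07%). Outside promoters, 8.50% of the LRSKBr3 sites and 4.73% of the pSKBr3 sites held it.

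**Figure D1:**
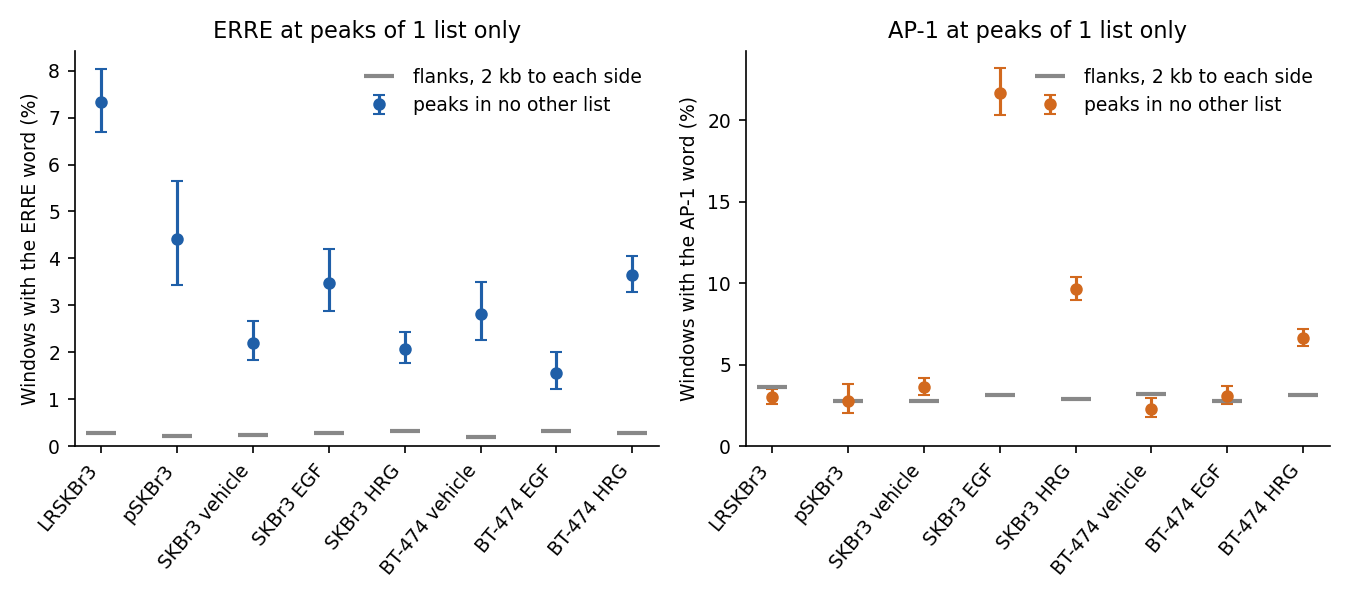
Share of windows (%) holding the ERRE (left) or AP-1 word (right) in the central 200 bp of peaks found in 1 list only, for each of the 8 lists; points are shares with 95% Wilson intervals and grey dashes are the flanking windows. LRSKBr3 stands highest for the ERRE at 7.34%, and for AP-1 its point of 3.02% lies below its flanks at 3.65%, while SKBr3 EGF reaches 21.7%.

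AP-1 words behaved differently. They were present in 178 unique sites, or 3.02% (2.62 to 3.49%), which was no more than the 3.65% (3.33 to 4.01%) of their own flanks. The other LRSKBr3 peaks held the word in 6.13%, a difference of −3.10 percentage points (−3.59 to −2.57), and their flanks in 3.23%. The LRSKBr3 peaks absent from pSKBr3 and present in a SKBr3 list held it in 7.79%. Among those, the 5891 called on EGF or HRG but not on vehicle reached 8.93%, a difference of −5.90 percentage points (−6.76 to −5.06) for the unique sites. LRSKBr3 peaks shared only with BT-474 lists had an AP-1 share of 3.83%, and the difference to them, −0.81 percentage points (−1.89 to 0.12), did not exclude 0. Those same peaks held the ERRE in 12.9%, so that the unique sites were lower, with a difference of −5.58 percentage points (−7.35 to −3.94).

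The AP-1 share of the sites unique to LRSKBr3 was also below that of the peaks unique to 3 of the growth factor lists, BT-474 EGF being the exception. The word was present in 21.7% of peaks unique to SKBr3 EGF, 9.64% of those unique to SKBr3 HRG and 6.66% of those unique to BT-474 HRG, and every interval of the difference to LRSKBr3 excluded 0. The shares for pSKBr3 (2.79%), SKBr3 vehicle (3.62%), BT-474 vehicle (2.32%) and BT-474 EGF (3.08%) did not differ from LRSKBr3 beyond the interval.

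With the number of other lists that shared a peak, the AP-1 share of LRSKBr3 peaks was 3.02% at 0, 4.73% at 1, 6.22% at 2 and between 5.67 and 7.39% from 3 to 7. For the ERRE, the share was 7.34% at 0, 6.16% at 2 and 8.71% at 7. The median score was 73.9 at 0, 246 at 4, 218 at 5 and 816 at 7. The score thus also changed along this axis.

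**Figure D2:**
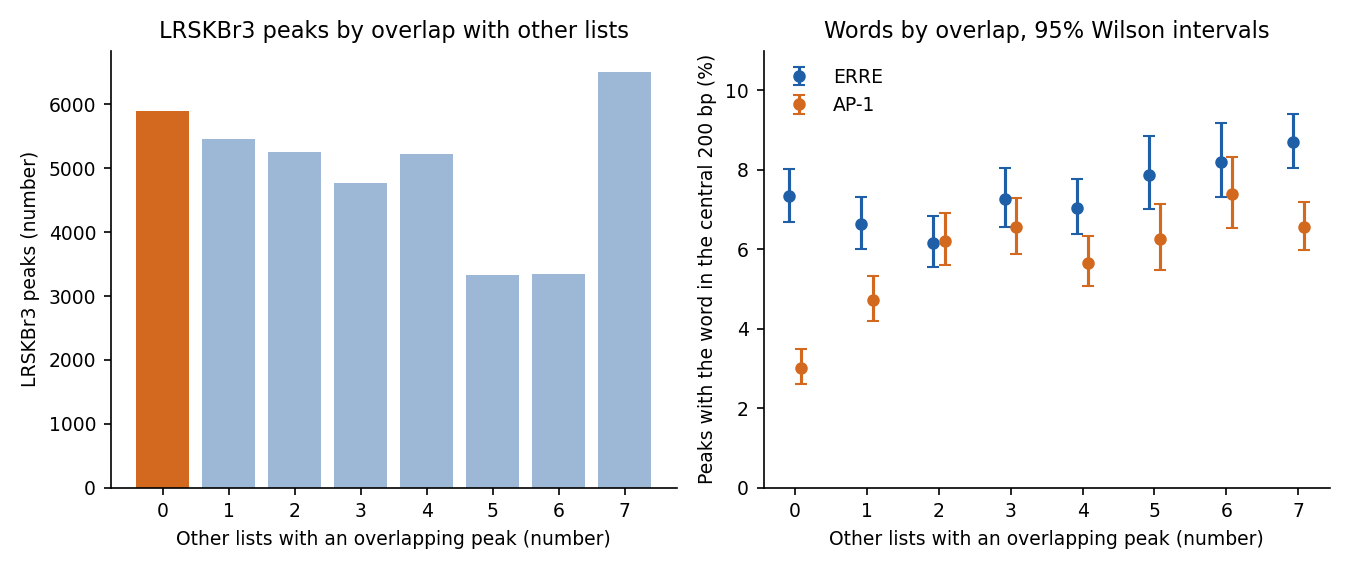
Left, number of LRSKBr3 peaks by how many of the 7 other lists hold an overlapping peak, with the unique sites in orange; right, share of those peaks (%) with the ERRE or AP-1 word in the central 200 bp, with 95% Wilson intervals. The AP-1 share is lowest at 0 other lists (3.02%) and the ERRE share there is 7.34%.

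The 4 score bands of the LRSKBr3 list were therefore compared one by one. In the lowest band the AP-1 word was present in 3.34% of unique sites and 7.70% of other peaks. In the second band it was present in 2.29% and 6.62%, and in the third in 3.54% and 5.62%, where the interval of the difference reached 0.10. The top band held 29 unique sites, of which 1 had the word, too few for a comparison. The lower AP-1 share of the unique sites thus stood in the lowest and second bands, which hold 3529 and 1876 of them. For the ERRE, the unique sites and other peaks of the lowest band had 8.53% and 9.09%. In the second and the third band the unique sites fell below the others, with 5.97% against 7.92% and 4.20% against 7.35%, and both intervals excluded 0.

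Within the unique sites the ERRE share was highest at scores of 60 to 80 and lower above them. It was 7.70% for scores of 50 to 60, 9.29% for 60 to 80, 6.82% for 80 to 100, 5.32% for 100 to 200 and 3.76% for 200 to 400. None of the 25 sites scoring over 400 held it in the central window, with an upper interval bound of 13.3%. The median width also went up, from 1088 bp at scores of 50 to 60 to 2418 bp over 400. The part of width in these shares was not tested. Among the other LRSKBr3 peaks the share fell too, from 9.09% in the lowest score band to 5.90% in the top band.

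The ERRE share went up with the distance from other lists' peaks. The median gap between a unique site and the nearest peak of any other list was 6.58 kb, and 774 sites, or 13.1%, lay within 1 kb. Of these, 5.17% (3.82 to 6.96%) held the ERRE. The share was 7.63% at gaps of 5 to 10 kb, 8.46% at 10 to 50 kb, 13.1% (9.25 to 18.1%) at 50 to 100 kb and 18.5% (11.9 to 27.6%) in the 92 sites over 100 kb away. The most isolated sites were thus the richest in the word, and the intervals of the nearest and the farthest sites did not overlap. Over the same distances the AP-1 share stayed between 2.71 and 3.60%, the mean GC content between 49.7 and 51.6% and the median score between 70.2 and 75.8. SKBr3 HRG was the list with most near neighbours, with a peak within 1 kb of 7.75% of the unique sites, and BT-474 EGF the list with fewest, at 2.02%.

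**Figure D3:**
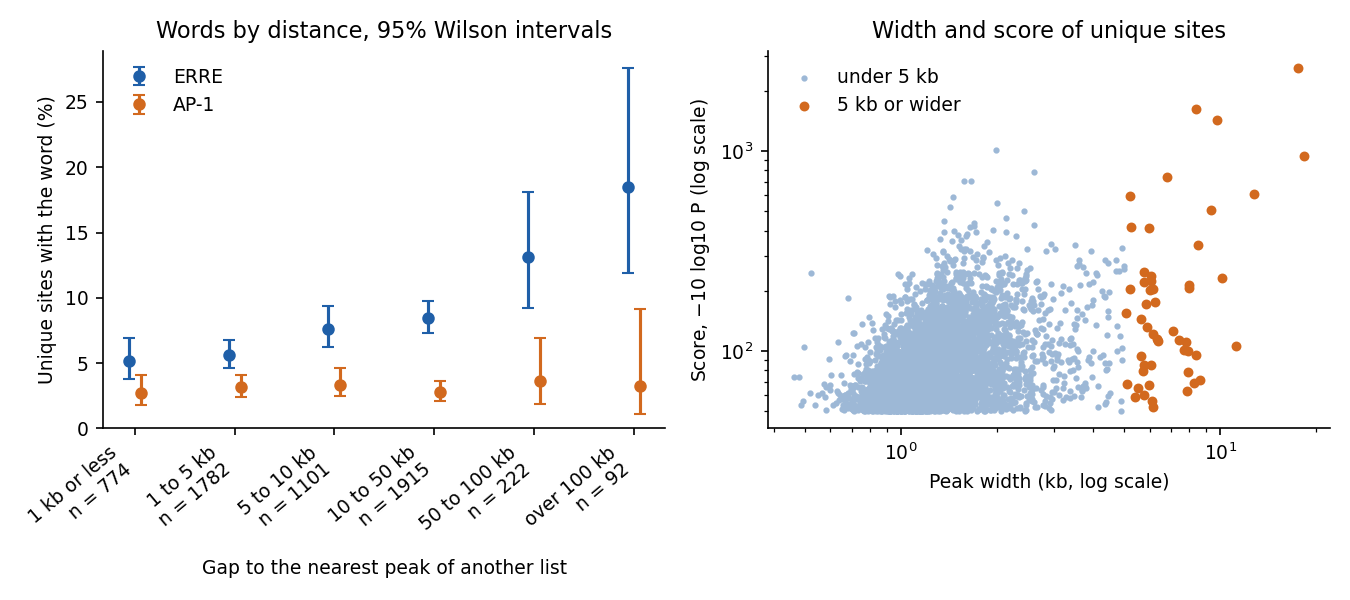
Left, share of unique sites (%) with the ERRE or AP-1 word by the gap to the nearest peak of another list, with 95% Wilson intervals and the number of sites under each point; right, score against width (kb) of each unique site, both on log scales, with sites of 5 kb or wider in orange. The ERRE share is 5.17% within 1 kb and 18.5% beyond 100 kb, and the site of highest score, 2601, is one of the 51 wide sites.

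Other words were searched as well, 19 in all. TEAD factors, the DNA-binding partners of YAP, recognise GGAATGT, which was present in 5.56% of unique sites, 2.74% of their flanks and 4.48% of the other LRSKBr3 peaks, a difference of 1.08 percentage points (0.48 to 1.73). The NFY word CCAATCA was present in 2.67% against 1.92%, a difference of 0.75 (0.34 to 1.21). The unique sites were lower for the FOXA word TGTTTAC, 3.08% against 3.93%, and for the ETS word CCGGAAGT, 0.561% against 1.05%, and both intervals excluded 0. The antioxidant response element of NFE2L2, sought as TGACNNNGC, was present in 9.70% and 10.00%, and the difference of −0.30 (−1.10 to 0.54) did not exclude 0. In the 35116 RefSeq promoters of 300 bp (GRCh38.p14) the ERRE was present in 0.353%, the AP-1 word in 4.95%, TEAD in 3.46%, NFY in 6.95%, FOXA in 3.42%, ETS in 4.14% and the antioxidant element in 13.3%. Apart from the words of AP-1, TEAD, NFY, FOXA and ETS, all had intervals of the difference that included 0.

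The unique sites kept a share of promoters that was lower than in the rest of the list and higher than in the peaks unique to other lists. A promoter is here the region within 1 kb of the start of a protein-coding transcript. It held 954 unique sites, or 16.2% (15.3 to 17.2%), against 18.7% of the other LRSKBr3 peaks, a difference of −2.54 percentage points (−3.55 to −1.49). That direction was not kept within the lowest and the second score band, where the unique sites were at promoters more often, by 3.01 (1.63 to 4.43) and 3.18 points (1.29 to 5.17), and in the third band the difference was −1.59 (−5.06 to 2.38). In the top band 2 of only 29 unique sites were at promoters, a difference of −17.04 (−22.09 to −1.95). LRSKBr3 peaks shared with pSKBr3 had 25.5% at promoters and those absent from pSKBr3 and in a SKBr3 list 10.1%, so that the unique sites lay between these classes. Peaks unique to the other lists had 0.637 to 8.50%. By their centre, 43.6% of unique sites were in introns, 11.3% in exons and 45.1% between genes, and the median distance to a start was 18.1 kb. Promoter sites rarely had an ERRE, with 13 of 954, or 1.36%, against 8.50% of the sites elsewhere.

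The unique sites of highest score included several very wide peaks. The first, at chr20:55620740-55638248, was 17509 bp wide with a score of 2601.1 and lay 211 kb from BMP7, a bone morphogenetic protein. PREX1, an exchange factor for the GTPase RAC, held the second in an intron (chr20:47346671-47355048, score 1620.0). The third lay 5.10 kb upstream of NEUROD2, a neurogenic transcription factor whose gene lies close to ERBB2 on chromosome 17 (chr17:37764399-37774147, score 1420.4). All of the first 3 were over 8 kb wide and none had the ERRE or the AP-1 word in the central window.

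Further down, a site 1.03 kb upstream of RBM38, an RNA-binding protein, scored 1006.2 at a width of 1974 bp. The widest unique site, of 18306 bp, had its centre in an exon of MED24, a Mediator subunit, and a score of 939.91. A site in an exon of KRT78, a keratin, scored 786.71, one in an intron of UQCC1, an assembly factor of respiratory complex III, 736.94, and one in an exon of PRKDC, the DNA-dependent protein kinase, 710.75. Both words were absent from the central windows of these 5 as well. The site 28.0 kb upstream of PCDH19, a protocadherin, scored 709.04, and a second site at BMP7, 107 kb from its start, 609.84. CALU, which encodes a calcium-binding protein of the secretory pathway, held one in an intron with 598.51, and KYAT1, a kynurenine aminotransferase, another with 587.61. The last of these lay 19 bp from a peak of another list, the KRT78 site 388 bp and the PREX1 site 433 bp, so that a slightly wider call would have removed them from the class.

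Peaks of 5 kb or wider made up 51 of the 5886 unique sites, and 10 of the 29 in the top score band. Of the 51 wide unique sites 27 were on chromosome 20, 6 each on chromosomes 8 and 17, 5 each on chromosomes 3 and 7 and 2 on chromosome 10, and none on the others. In the rest of the LRSKBr3 list, 167 of the 606 wide peaks were also on chromosome 20 and 118 on chromosome 7. Chromosomes 17, 10, 3 and 8 had 45, 37, 24 and 21 of them. Chromosomes 1 and 2, without a wide unique site, had 48 and 31. No ERRE stood in the central window of any of the 51 (upper interval bound 7.0%), though 15, or 29.4%, held it somewhere in the peak. Among the other 606 wide LRSKBr3 peaks 7, or 1.16%, had an ERRE in the central window and 29.4% somewhere in the peak. The unique sites under 5 kb held it in the central window in 7.40% (6.76 to 8.10%) and anywhere in the peak in 13%, and the difference between wide and narrow unique sites was not tested.

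Some wide sites stood close together, in stretches that were chosen here after their values were seen. Between 53 and 58 Mb of chromosome 20 there were 26 unique sites, 15 of them wide, among 55 LRSKBr3 peaks. The LRSKBr3 list held 31 wide peaks there, pSKBr3 25, the SKBr3 lists 14 to 16 and the BT-474 lists 3 to 5. On chromosome 3 the 5 wide unique sites lay within 0.344 Mb, between 37973083 and 38317564, where LRSKBr3 held 6 wide peaks between 37 and 39 Mb and the other lists 0 to 3. On chromosome 17 the 6 wide unique sites lay between 37764399 and 39739859, a span that includes ERBB2, the gene of HER2. Wide peaks between 37 and 41 Mb numbered 20 in LRSKBr3, 9 in pSKBr3, 8 to 17 in the SKBr3 lists and 1 in each BT-474 list. Copy number in these stretches was not measured, and its part in the wide peaks was not tested.

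By chromosome, the share of LRSKBr3 peaks that were unique was 19.7% on chromosome 20, 20.2% on X and 19.3% on 22, and 6.92% on 13. Against all other chromosomes these were higher by 5.04 (2.94 to 7.32), 5.46 (2.75 to 8.48) and 4.65 percentage points (2.37 to 7.15), and for chromosome 13 the difference was −8.0 (−9.80 to −5.67). The rest ranged from 12.8% on chromosome 1 to 16.7% on chromosome 2, leaving out chromosome Y with 2 peaks, and of these the intervals for chromosomes 1, 2 and 5 also excluded 0. Among LRSKBr3 peaks at a P value of 1e-10 or lower the difference for X was 1.00 (−0.98 to 3.68), while the other 3 still excluded 0. In windows of 5 Mb with at least 20 LRSKBr3 peaks, the highest shares were 46.7% at 50 to 55 Mb of chromosome 20 (14 of 30 peaks), 37.9% at 10 to 15 Mb of chromosome 8 (11 of 29), 35% at 95 to 100 Mb of chromosome 6 (7 of 20), 34.8% at 55 to 60 Mb of chromosome 20 (24 of 69) and 34.3% at 145 to 150 Mb of chromosome 2 (12 of 35). Only the chromosome 20 windows held wide sites, 3 and 13.

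**Figure D4:**
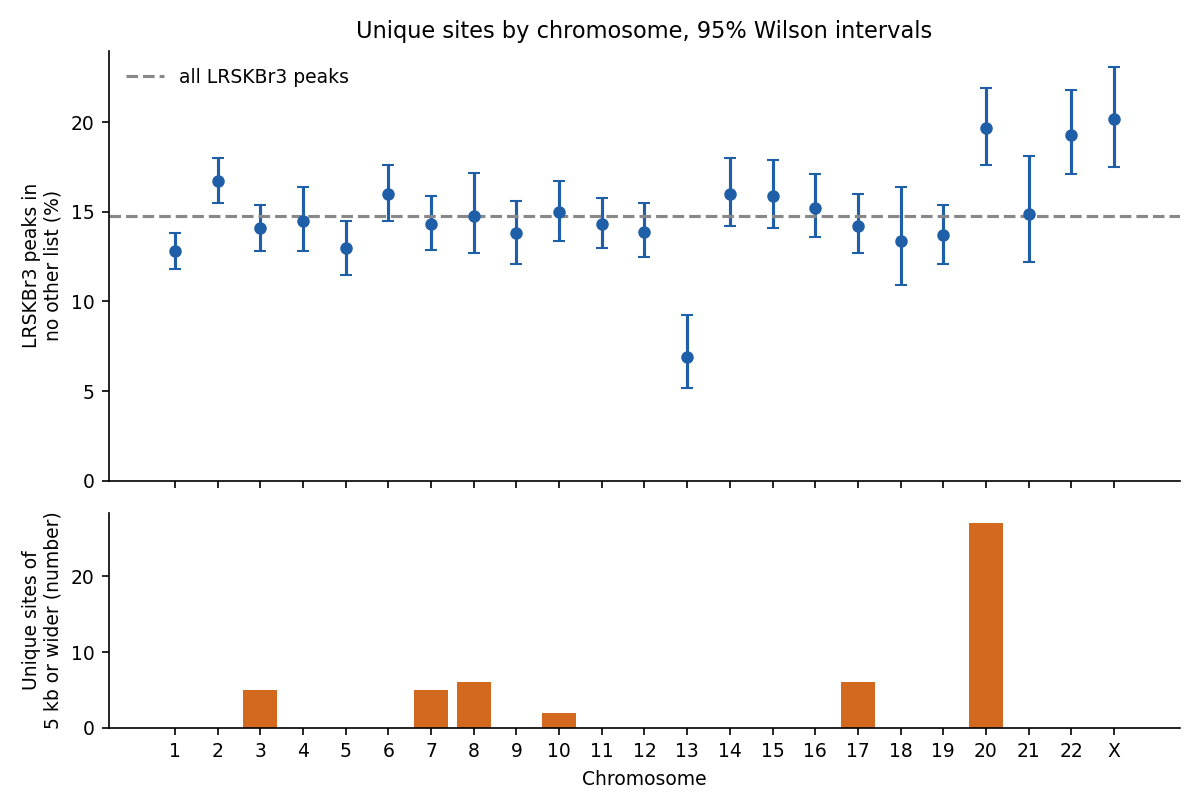
Top, share of LRSKBr3 peaks (%) that are unique on each chromosome, with 95% Wilson intervals and the value over all LRSKBr3 peaks as a dashed line; bottom, number of unique sites of 5 kb or wider. Chromosomes 20, 22 and X stand above the line and 13 below it at 6.92%, and 27 of the 51 wide sites are on chromosome 20.

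Genes were taken as near a site when a start lay within 20 kb of its centre. A unique site was near 3859 of the 19812 protein-coding genes, or 19.5%. Of these genes 3200 had 1 unique site and 115 had 3 or more, and 1061 had one at a promoter. The genes with most were FBLN1, a matrix glycoprotein, with 7, KCNMA1, a potassium channel, with 6, and MCAM, an adhesion molecule, PTPN21, a phosphatase, and ATXN1L, a transcriptional corepressor, with 5 each. FBLN1 had 21 peaks of the other lists in range and KCNMA1 48, but MCAM had 2, PTPN21 6 and ATXN1L 8. No peak of any other list was in range of 504 of the 3859 genes, which is 2.54% of all protein-coding genes.

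Genes of peroxide and thioredoxin defence were near a unique site more often than any other of the 20 gene lists compared, with 16 of 30 genes, or 53.3%, against 19.5% of all genes. Sites unique to SKBr3 HRG, a larger class, were near 10 of the 30, or 33.3%, against 18.6% of all genes, and those of the other 6 lists were near 0 to 5 (0 to 16.7%), against 3.10 to 11.5% of all genes. At 10 kb the LRSKBr3 count was 11, or 36.7%, against 13% of all genes, and at 5 kb it was 10, or 33.3%, against 8.97%. All 16 genes also had peaks of other lists in range, from 3 to 33 of them.

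Among these genes, TXN, which encodes thioredoxin, had a unique site with a score of 171.9 in its promoter region, 0.760 kb from a start in an intron. TXNRD1, the cytosolic thioredoxin reductase, had 2 unique sites, the stronger, of 169.3, lying in an intron 9.03 kb from a start and holding an AP-1 word. SRXN1, which repairs oxidised peroxiredoxins, had one at 14.7 kb with a score of 204.0. These 3 belong to the same enzymatic cycle. The peroxiredoxin PRDX5 shared its site (chr11:64081586-64083315, score 304.0) with ESRRA, the gene of ERRα itself, within an intron of which it lay, 0.695 kb from an ESRRA start. NFE2L2, the master regulator of the antioxidant response, had 2 unique sites (best score 136.2), HMOX1, its target in haem breakdown, 3 (121.5, 1.04 kb from the start), and NQO1, a quinone reductase, 1 (103.6). PRDX1 and PRDX2 had 2 each with best scores of 133.8 and 99.49. SOD3, the extracellular superoxide dismutase, and FTL, the ferritin light chain, had theirs 0.229 and 0.192 kb from a start with scores of 64.24 and 58.13. None of the best sites near the 16 genes held an ERRE in the central window, and TXNRD1 was the one with an AP-1 word.

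**Figure D5:**
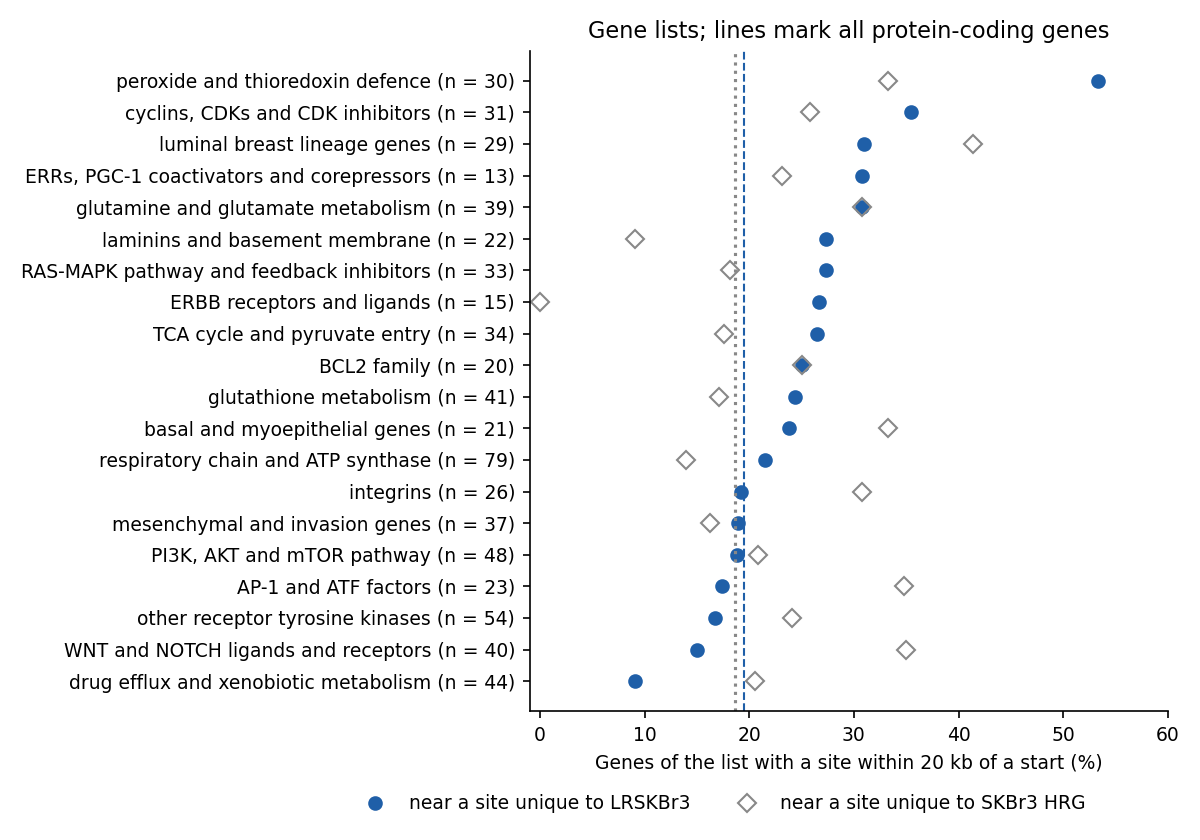
Share of the genes of each list (%) with a start within 20 kb of a site unique to LRSKBr3 (blue) or unique to SKBr3 HRG (open diamonds), with the number of genes in each list; dashed and dotted lines mark all protein-coding genes, at 19.5% and 18.6%. Peroxide and thioredoxin defence stands highest for LRSKBr3 at 53.3%, and drug efflux and xenobiotic metabolism lowest at 9.09%.

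Glutathione metabolism had 10 of 41 genes near a unique site, or 24.4% (13.8 to 39.3%), an interval that includes the 19.5% of all genes. They included GSR, the glutathione reductase (score 94.84, in its intron), CHAC1, which degrades glutathione (2 sites, 115.5), and the transferases GSTM3 and GSTM5, which shared a site of 183.2. GCLC and GSS, the enzymes of glutathione synthesis, were in the list and not among the 10. Drug efflux and xenobiotic metabolism had the lowest share, 4 of 44 genes or 9.09% (3.59 to 21.2%), which also includes 19.5%, against 9 (20.5%) near sites unique to SKBr3 HRG. The 4 were POR, the reductase that serves all microsomal cytochromes P450 (161.7), ALDH1A3 (72.96), CYP1A1 (68.87, 0.687 kb from a start) and CYP3A5. CYP3A5, a drug-metabolising cytochrome, had no peak of another list in range, and its 2 unique sites scored 63.36 in an intron and 57.28 at 3.34 kb, the nearest other peak being 43507 bp away.

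Glutamine and glutamate metabolism had 12 of 39 genes near a unique site, or 30.8% (18.6 to 46.4%), an interval that includes the 19.5% of all genes. Sites unique to SKBr3 HRG were near the same number, against 18.6% of all genes. The transporter SLC7A5 had the strongest (312.8, within its intron). GLUD1, glutamate dehydrogenase, had its site 0.804 kb from a start with a score of 79.74. CPS1, which makes carbamoyl phosphate in mitochondria, had 4 sites with a best score of 105.2. SLC38A5, a glutamine transporter, had 1 site (53.73, within FTSJ1) and no peak of another list in range.

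Mitochondrial genes, the best-known targets of ERRα, were near unique sites in 17 of 79 cases for the respiratory chain and ATP synthase (21.5%) and 9 of 34 for the TCA cycle and pyruvate entry (26.5%), beside 19.5% of all genes. Any LRSKBr3 peak was in range of 77 of 79 and 30 of 34 of these genes (97.5% and 88.2%), beside 67.1% of all genes. NDUFB11, a subunit of complex I, had a unique site at 0.104 kb (199.8), SDHA, the flavoprotein of complex II, one in an intron (195.5), and PC, pyruvate carboxylase, had 3 (148.2). ERRs, PGC-1 coactivators and corepressors had 4 of 13, among them ESRRA, ESRRB and PPARGC1B, the last scoring 58.83 at 1.53 kb.

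Receptor and signalling genes had shares on either side of the 19.5% of all genes, which the interval of each of these lists included. ERBB receptors and ligands had 4 of 15 (26.7%): HBEGF, a ligand of EGFR (126.2), ERBB3, the heregulin receptor HER3 (120.5, at 1.12 kb), NRG4 (103.7, at 0.00700 kb) and EGFR (91.21, in an intron). Sites unique to SKBr3 HRG were near 0 of the 15 and those unique to BT-474 HRG near 4 (26.7%), beside 18.6% and 11.5% of all genes. Other receptor tyrosine kinases had 9 of 54 (16.7%), of which FGFR2 had 4 sites with a best score of 218.9. The PI3K, AKT and mTOR pathway had 9 of 48 (18.8%), among them PIK3R2 (127.7), SGK1 (125.8) and RPTOR (55.41). AKT1, the kinase downstream of PI3K, was the one gene of that list with no other list's peak in range, and its 2 unique sites scored 111.3 in an intron at 1.29 kb and 62.61 within ZBTB42 at 5.58 kb. The nearest peak of another list to the AKT1 intron site was 22137 bp away.

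RAS-MAPK genes and feedback inhibitors had 9 of 33 (27.3%, interval 15.1 to 44.2%), beside 19.5% of all genes. Sites unique to SKBr3 HRG were near 6 of the 33 (18.2%), beside 18.6%, and those unique to BT-474 HRG near 10 (30.3%), beside 11.5%. The 9 included SOS1 (147.4), ERRFI1, an inhibitor of ERBB receptors (123.9), MAP2K1 (105.4) and DUSP6 (52.40). RASA1, a GTPase-activating protein of RAS, had 2 neighbouring sites of 73.50 and 52.32 at its start and no other list's peak in range. For AP-1 and ATF factors the count was 4 of 23 (17.4%, interval 6.98 to 37.1%), against 8 for SKBr3 HRG (34.8%, beside 18.6% of all genes), and FOS and JUN were not among the 4, which included JUNB, ATF2 and JDP2.

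Cell cycle genes had the second highest share, 11 of 31 cyclins, CDKs, their inhibitors and E2F or RB family genes (35.5%, interval 21.1 to 53.1%), beside 19.5% of all genes. Sites unique to SKBr3 HRG were near 8 (25.8%), beside 18.6%. CCNB1, the mitotic cyclin, had the strongest (232.4). E2F1, E2F4 and CDKN2D had 3 sites each, with best scores of 99.68, 150.5 and 122.7, those of E2F1 and E2F4 within 1 kb of a start. CDK4 had one at 9.94 kb (140.2). CCND2, a D-type cyclin, had 1 site of 68.33 in an intron and no peak of another list within range, the nearest lying 69746 bp away. In the BCL2 family, 5 of 20 genes (25%) had a unique site: BIK (129.3, at 0.498 kb), BBC3 (72.33), BCL2L2 (71.05), BCL2L11, which encodes BIM (66.41, at 0.534 kb), and BAX, whose site it shared with FTL.

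Adhesion and lineage genes completed the lists, and the interval of each of these lists included the 19.5% of all genes. Integrins had 5 of 26 (19.2%), led by ITGB1 (199.7), against 8 (30.8%) for SKBr3 HRG, whose unique sites were near 18.6% of all genes. Laminins and basement membrane had 6 of 22 (27.3%), led by LAMA5 (215.8). Mesenchymal and invasion genes had 7 of 37 (18.9%), among them MMP9 (148.6), TGFB2 (118.4) and MMP14, a membrane-bound metalloproteinase whose 2 unique sites scored 260.3 in an intron of SLC7A7 and 130.9 within MRPL52, with no other list's peak in range. Luminal genes had 9 of 29 (31%, interval 17.3 to 49.2%), against 12 (41.4%) for SKBr3 HRG, with ELF5 (122.9), KRT8 (85.30) and ESR1, the gene of oestrogen receptor α (51.86, at 0.265 kb). Basal and myoepithelial genes had 5 of 21 (23.8%, interval 10.6 to 45.1%), against 7 (33.3%) for SKBr3 HRG. KRT14 among them had 3 sites with a best score of 203.4, in the stretch of chromosome 17 with wide sites, and KRT16 and KRT17 shared one of 225.6. WNT and NOTCH ligands and receptors had 6 of 40 (15.0%), led by FZD9 (124.2), against 14 (35%) for SKBr3 HRG. No gene list was tested against others, and nearness of a site does not show that a gene is controlled by it.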

How the data were processed

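The 19 samples are 13 ERRα ChIP and 6 input libraries of the cell lines named above. According to the submitters' processing notes and the study's methods, the authors aligned reads to hg19 (GRCh37) with BWA 0.5.9, used SAMtools 0.1.18, pooled replicate ChIP libraries and ran MACS, which kept peaks with P values up to 1e-05. The authors deposited a score with each peak, which is MACS's −10 log10 of the P value, and depends on library depth, which is unknown. Scores were compared within a list, except where alternatives applied 1 P value to every list.

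Overlaps, gaps, words and genes were computed with Python 3.11.15, numpy 2.4.6, pandas 2.3.3 and pysam 0.24.0, and the steps were tested on simulated data. An overlap is at least 1 bp. Words were sought on both strands within 100 bp of the peak centre, and in windows of that width 2 kb to each side as background. Repeats were not masked, and no sequence of chromosome 8 is printed. Some sites and genes that these rules select are not reported here. Genes are the 19812 protein-coding genes of GENCODE v44 lifted to GRCh37, of which 679 of 680 entries of the 20 gene lists were found. Shares have 95% Wilson intervals and differences have Newcombe intervals. With pooled lists there is no test between conditions, and no P value is given over sites. The members, words and gene lists were chosen with earlier results of these data known. Named are the 12 unique sites of highest score, some of the 6 of highest score with each word or both, and the 5 genes with most sites. Also named are the 5 windows of 5 Mb with the highest share among those with at least 20 LRSKBr3 peaks. In each gene list the genes with no other list's peak, or up to 4 with the strongest sites, are named. Further genes of the lists were named after their values were seen. Alternatives changed the score limit, the overlap, the lists, the window, the word and the distances.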

Additional observations from a re-analysis of the deposited data

How the results depend on the processing

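The number of unique sites stayed within 1.5 times of 5886 in most of the settings tried, for example at 4423 with every list at a P value of 1e-08, 5112 with a gap of 1 kb counted as shared, 7389 where each peak of a pair had to be covered by at least 50%, 7635 without the BT-474 lists and 8532 without SKBr3 HRG. It was 1555 for LRSKBr3 peaks at 1e-10 against whole lists, 3847 with every list at 1e-10 and 1753 with all lists at the length of the shortest. Those settings take fewer peaks by construction. Over the whole peak, the ERRE difference was −3.30 percentage points, and the part of peak width in it was not tested. In the central window the ERRE difference was −1.95 and −3.15 in the second and the third of the 4 score bands. The AP-1 difference kept its direction in every setting tried, but its interval included 0 in the third and the top band, at −2.08 and −1.76. For promoters the difference was 3.01 and 3.18 in the lowest and the second band, opposite in sign to the whole list, and −1.59 with an interval including 0 in the third band. It was −17.04 (−22.09 to −1.95) in the top band, which held only 29 unique sites. GC content differed by 1.91 and 1.75 points in the lowest and the second band and by 0.41 without promoters. Genes near a unique site numbered 1778 within 5 kb and 1227 with sites at 1e-10, and those with no other list's peak 157 with sites at 1e-10. The chromosome X difference was 1.00 at 1e-10. Leaving out peaks of 5 kb or wider, an alternative chosen after seeing the data, left 5835 sites and changed no call on the ERRE, AP-1 and chromosome differences, the results for which it was run. The causes of these changes were not tested except where stated. No paired analysis was possible because replicates were pooled before peaks were called, and for the same reason no replicate could be left out. Depth is unknown, so that detection and binding cannot be told apart where a site is called in LRSKBr3 alone.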
